A study of Mus musculus with 22 samples.

Results

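The germinal center B cells described here carry the heavy-chain V gene IGHV1-72 together with a lambda light chain, the receptor pair typical of the response to the hapten NP in C57BL/6 mice, and they were divided by the residue at position 4 of the heavy-chain CDR3. The tyrosine arm holds cells with tyrosine there and the other-residue arm holds cells with any other residue, with the conserved first cysteine of the CDR3 counted as position 1. For each cell the productive heavy contig and the productive light contig with the most UMIs (unique molecular identifiers, counts of distinct transcript molecules) were used. Of 3488 cells with a productive heavy chain in the NP libraries, and 5503 in the series, 1940 met the rule. The tyrosine arm had 763 cells in NP 1 and 676 in NP 2, and the other-residue arm had 261 in NP 1 and 240 in NP 2.

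Both arms come from the same libraries and the same sort. Male C57BL/6 mice aged 8 weeks had received 100 μg of NP(23)-KLH, a carrier protein coupled to the hapten, in alum with 1 μg of LPS, given into the peritoneum. On day 13, spleen B cells that were B220+, high for Fas and GL-7 and able to bind NP were sorted and captured for 5'-end single-cell RNA and immunoglobulin sequencing. There are 2 such libraries, and the number of mice behind each is not given in the sources used here, so the p-values below measure only the spread between these libraries, which may be technical. NP 1 and NP 2 share 11 cell barcodes in the gene table, 1 of them among these cells.

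In C57BL/6 mice, anti-NP antibodies built from this V gene and lambda chains dominate the early response, and a tyrosine-rich CDR3 that begins with the tyrosine after the V gene end is their known hallmark. Germinal center B cells divide and mutate their receptors in the dark zone, then take up antigen and seek T cell help in the light zone, where receptor and CD40 signals switch on NF-kB target genes. The CDR3 of a heavy chain is joined from V, D and J gene segments with added bases, so position 4 lies in the junction of V and D and is not set by the V gene alone.

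The heavy-chain CDR3 nucleotide sequences of leading clones of each arm and library show how the arms are built. A clone is a set of these cells in 1 library that share V gene, J gene and heavy CDR3 nucleotides. By this rule cells of separate origin with the same rearrangement count as 1 clone, and a mutation in the CDR3 divides a clone. How often either occurs was not tested. Codon 4, which defines the arms, and the fifth codon from the end, described below, are in capitals, read 5′ to 3′ from the deposited contig tables.
NP 1 tyrosine arm, 23 cells, IGHJ2: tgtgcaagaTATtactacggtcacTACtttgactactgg
NP 1 tyrosine arm, 18 cells, IGHJ2: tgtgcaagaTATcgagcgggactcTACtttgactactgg
NP 2 tyrosine arm, 31 cells, IGHJ1: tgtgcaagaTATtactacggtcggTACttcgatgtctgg
NP 1 other-residue arm, 8 cells, IGHJ2: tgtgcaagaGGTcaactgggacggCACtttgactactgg
NP 1 other-residue arm, 8 cells, IGHJ2: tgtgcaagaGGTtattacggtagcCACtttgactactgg
NP 1 other-residue arm, 7 cells, IGHJ2: tgtgcaagaTCTtacTACtttgactactgg
NP 2 other-residue arm, 18 cells, IGHJ2: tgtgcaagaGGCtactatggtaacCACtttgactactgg
NP 2 other-residue arm, 13 cells, IGHJ2: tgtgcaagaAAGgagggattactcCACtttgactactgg
NP 2 other-residue arm, 13 cells, IGHJ2: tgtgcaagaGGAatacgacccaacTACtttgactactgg
The 3 tyrosine clones shown read tyrosine at both capitals. Other leading tyrosine clones had serine, isoleucine or alanine at the second, such as the NP 1 clone of 13 cells, with serine. Of the 6 other-residue clones, 4 have a glycine codon, 1 a lysine codon and 1, the short one of 7 cells, a serine codon at position 4. The lysine clone and 3 of the glycine clones have the histidine codon CAC near the end, while the last glycine clone and the serine clone have tyrosine there. The gene segments lie on chromosome 12 in GRCm38.p6, the assembly behind mm10, by RefSeq: Ighv1-72 at 115757984 to 115758277, Ighd1-1 at 113482170 to 113482192 and Ighj2 at 113429468 to 113429515. The lambda V gene Iglv1 lies on chromosome 16 at 19085017 to 19085460.

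Glycine was the main alternative to tyrosine in both libraries, and the remaining residues differed between libraries. In the other-residue arm, glycine made up 49.4% of cells in NP 1 and 61.3% in NP 2, in 86 and 75 clones. Serine and asparagine came next in NP 1, with 20.3% and 12.3%, and made up 5.42% and 2.92% in NP 2. Lysine and arginine came next in NP 2, with 12.5% and 7.08%, and made up 2.68% and 1.92% in NP 1. In the tyrosine arm the codon was TAT in 68.7% of NP 1 cells and 68.6% of NP 2 cells, and TAC in the rest. Glycine used all 4 of its codons, with GGG the most frequent at 34.1% in NP 1 and 44.9% in NP 2.

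A histidine at the fifth position from the CDR3 end had the largest mean difference between the arms among the receptor shares compared over all cells, -49.8 percentage points. It was noticed while the sequences were read, so its values are a description. It was present in 1.70% (0.91 to 2.90) of NP 1 and 4.29% (2.89 to 6.10) of NP 2 tyrosine cells, against 41.0% (35.0 to 47.2) of NP 1 and 64.6% (58.2 to 70.6) of NP 2 other-residue cells; the ranges are exact Clopper-Pearson intervals at 95%, which cover counting error only, here and below. The groups do not overlap. Tyrosine at the same place had the opposite order, with 57.3% (53.7 to 60.8) and 43.3% (39.6 to 47.2) of tyrosine cells in NP 1 and NP 2 against 23.4% (18.4 to 29.0) and 15.0% (10.7 to 20.2) of other-residue cells.

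**Figure D1:**
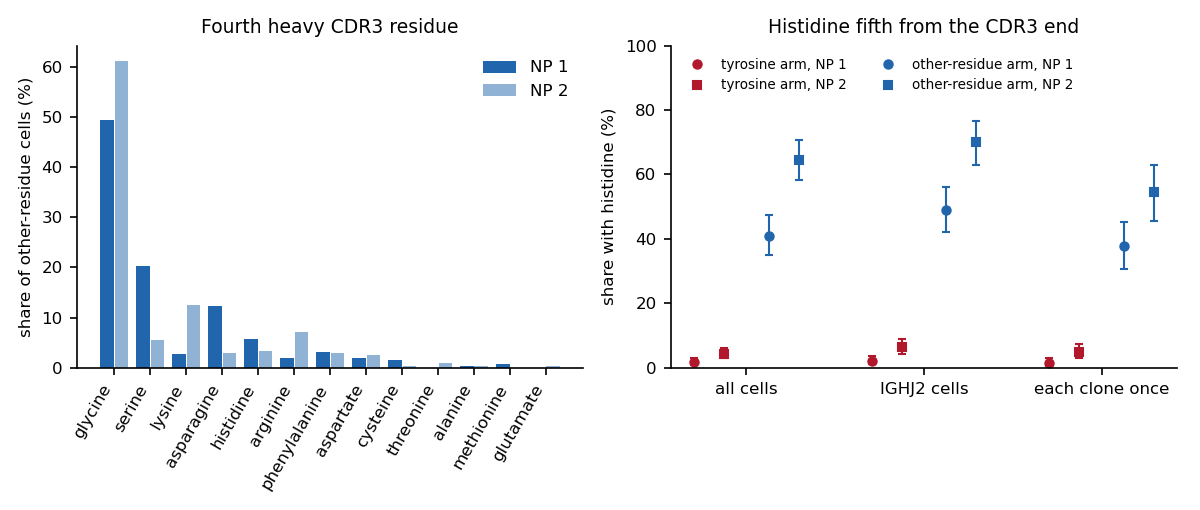
Left, the share of other-residue cells (%) by the residue at position 4, in NP 1 (dark) and NP 2 (light). Right, the share (%) of each arm with histidine at the fifth position from the CDR3 end, in all cells, in IGHJ2 cells and with each clone counted once, with 95% Clopper-Pearson intervals; the tyrosine arm stays under 10% in every case and the other-residue arm lies above 37%.

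Most glycine cells carried the histidine, and the difference between the arms held with J gene and length fixed. Among glycine cells 75.2% (66.8 to 82.4) in NP 1 and 76.2% (68.5 to 82.8) in NP 2 carried it, and counted by clone 68.6% and 72.0%. The other-residue cells without glycine had 7.58% (3.69 to 13.5) in NP 1 and 46.2% (35.8 to 56.9) in NP 2, and the lysine and arginine cells among them had 41.7% (15.2 to 72.3) of 12 cells in NP 1 and 89.4% (76.9 to 96.4) of 47 cells in NP 2. At IGHJ2 and 13 residues, histidine was read in 1 of 212 tyrosine cells (0.472%) in NP 1 and 0 of 136 in NP 2, which allows a share of up to 2.21%, against 80.2% (70.6 to 87.8) and 69.4% (59.3 to 78.3) of other-residue cells. Each clone counted once gave 1.44% and 4.92% of tyrosine clones against 37.8% and 54.4% of other-residue clones. CAC was the codon in 96.3% of the histidine-bearing other-residue cells of NP 1 and 92.3% of those of NP 2. Elsewhere in the series it was rare: 0.595% (0.194 to 1.38) of NP 1 cells and 0 of 575 NP 2 cells with other heavy V genes, and 0.347% (0.140 to 0.714) of cells of the OVA library, had histidine at that position. In IGHV1-72 cells with a kappa chain it was read in 2 of 43 NP 1 cells and 11 of 34 NP 2 cells.

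Cells that differ from a tyrosine rearrangement only in codon 4 were few. In NP 1 and NP 2 together 11 other-residue sequences equalled a tyrosine rearrangement of the same library and J gene outside that codon, each in 1 cell. Of these, 7 differed from the tyrosine codon by 1 base, with phenylalanine the residue in 4, as in this pair from NP 1, the tyrosine form in 7 cells:
NP 1 tyrosine arm, 7 cells: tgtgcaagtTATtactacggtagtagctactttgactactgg
NP 1 phenylalanine, 1 cell: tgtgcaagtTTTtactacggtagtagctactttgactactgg
The other 4 carried a glycine codon that differs from the tyrosine codon by 2 or 3 bases.

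Heavy CDR3s were longer in the tyrosine arm. The mean length was 14.1 ± 1.20 residues in NP 1 (SD over 763 cells) and 14.1 ± 1.19 in NP 2 (676 cells) in the tyrosine arm, against 12.4 ± 2.05 in NP 1 (261 cells) and 13.3 ± 1.47 in NP 2 (240 cells) in the other-residue arm. The 4 means do not overlap between arms, and the mean difference over the libraries was 1.27 residues. An exact two-sided permutation test over the 4 library means gave p = 0.333, the smallest that 2 against 2 allows, so this test cannot pass 0.05 for any receptor measure here, whatever the differences within the libraries. The difference lies at both ends of the range: CDR3s of 16 residues made up 20.97% and 12.6% of tyrosine cells in NP 1 and NP 2 against 1.53% and 5.42% of other-residue cells. CDR3s of 10 residues made up 35.6% (29.8 to 41.8) of NP 1 and 5.42% (2.92 to 9.08) of NP 2 other-residue cells and were read in 0 of 763 and 0 of 676 tyrosine cells, which allows shares of up to 0.393% and 0.444%. The glycine cells alone averaged 13.0 ± 1.46 residues in NP 1 (129 cells) and 13.6 ± 1.00 in NP 2 (147 cells).

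**Figure D2:**
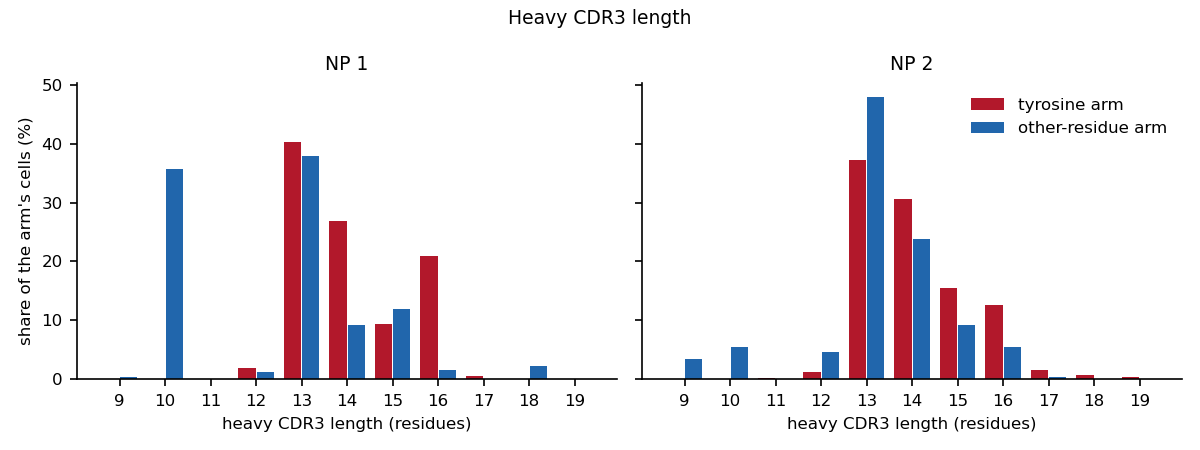
Share (%) of each arm's cells by heavy CDR3 length in residues, tyrosine arm (red) left of other-residue arm (blue), in NP 1 and NP 2. Lengths 14 and 16 are more frequent in the tyrosine arm in both libraries, and length 10 occurs in the other-residue arm, with 35.6% of NP 1 and 5.42% of NP 2 cells.

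The short receptors of 10 residues were mostly NP 1 cells with a small set of residues at position 4. Serine or asparagine stood at position 4 in 68.8% (58.4 to 78.0) of the 93 NP 1 cells, and IGHJ2 was used by 92.5%. They fell into 64 clones. Class-switched receptors were read in 76.3% (66.4 to 84.5) and IgG1 in 34.4% (24.9 to 45.0) of them. The leading forms, with codon 4 in capitals, are:
NP 1, 10 residues, 7 cells: tgtgcaagaTCTtactactttgactactgg
NP 1, 10 residues, 5 cells: tgtgcaagaCACtacggctttgactactgg
NP 1, 10 residues, 4 cells: tgtgcaagaGGGtactactttgactactgg
NP 1, 10 residues, 4 cells: tgtgcaaggAACtgggactttgactactgg
In NP 2 the same length had 13 cells, 6 of them with serine or asparagine.

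Tyrosines were also more numerous, counted per CDR3, in the rest of the tyrosine-arm CDR3. Behind position 4 the mean number of tyrosines per CDR3 was 3.26 and 3.21 in NP 1 and NP 2 in the tyrosine arm, against 2.34 and 2.03 in the other-residue arm. These counts are not scaled by length, and the mean length was 14.1 and 14.1 residues against 12.4 and 13.3. They also include the fifth position from the end, where tyrosine was more frequent in the tyrosine arm. How much of the difference lies in either was not tested. The D gene IGHD1-1, which encodes a run of tyrosines, was assigned in 24.6% (21.6 to 27.9) and 20.9% (17.9 to 24.1) of tyrosine cells in NP 1 and NP 2, against 1.53% (0.419 to 3.88) and 0.833% (0.101 to 2.98) of other-residue cells. These are shares of all cells of the arm, with or without a D gene call. Position 4 lies in the junction of V and D, so codon 4 can be part of the D gene match. The D gene call, and the tyrosines a D gene encodes, are therefore not independent of the rule that split the arms. How much of either difference the rule sets was not tested.

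J gene use differed in the same direction in both libraries. IGHJ2 was used by 72.9% (69.6 to 76.0) and 65.8% (62.1 to 69.4) of tyrosine cells in NP 1 and NP 2, against 82.0% (76.8 to 86.5) and 76.7% (70.8 to 81.9) of other-residue cells, a mean difference of -9.98 percentage points (exact permutation p = 0.333). The difference was -9.12 in NP 1 and -10.8 in NP 2. IGHJ4, the longest of the J segments used here in its CDR3 part, had 14.7% (12.2 to 17.4) and 14.2% (11.7 to 17.1) of tyrosine cells against 2.30% (0.848 to 4.94) and 1.67% (0.456 to 4.21) of other-residue cells. IGHJ3 had 1.70% and 2.22% of tyrosine cells against 5.36% and 13.3% of other-residue cells. None of these shares overlap between the arms. IGHJ1 had 10.7% and 17.8% of tyrosine cells against 10.3% and 8.33% of other-residue cells, close together in NP 1. With glycine cells alone as the other-residue arm, IGHJ2 reached 95.3% in NP 1 and 82.3% in NP 2.

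Rearrangements were shared between the libraries in the tyrosine arm. NP 1 and NP 2 had 13 identical tyrosine rearrangements, 2.67% of the 487 in NP 1 and 2.91% of the 447 in NP 2, against 0 identical rearrangements among 180 in NP 1 and 136 in NP 2 of the other-residue arm. At the level of amino acids, 36 tyrosine CDR3s were in both libraries, 8.91% of those in NP 1 and 9.21% of those in NP 2, against 5 other-residue CDR3s, 3.27% and 4.24%. The larger arm has more chances to share, and the difference was not tested. The leading shared forms use IGHJ2 and are given with codon 4 in capitals:
13 cells in NP 1 and 8 in NP 2: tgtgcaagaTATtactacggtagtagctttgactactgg
12 cells in NP 1 and 5 in NP 2: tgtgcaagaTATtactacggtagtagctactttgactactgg
4 cells in NP 1 and 10 in NP 2: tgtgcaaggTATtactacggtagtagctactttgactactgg
7 cells in NP 1 and 6 in NP 2: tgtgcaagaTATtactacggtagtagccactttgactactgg
The last of them carries the histidine codon near the end.

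Changes in the lambda light-chain CDR3 were less frequent in the tyrosine arm. A light CDR3 was counted as mutated where it differs from the commonest CDR3 of the same V gene, J gene and length over all productive lambda contigs, and this held for 41.7% (38.2 to 45.3) and 41.7% (37.97 to 45.5) of tyrosine cells in NP 1 and NP 2, against 53.3% (47.0 to 59.4) and 52.9% (46.4 to 59.4) of other-residue cells. The arms do not overlap, and the difference was -11.6 percentage points in NP 1 and -11.2 in NP 2, with a mean of -11.4 (exact permutation p = 0.333). Codon 8 of this CDR3, at the joint of V and J, varies between the codons CAT, CAC and CTT. With codon 8 left out, a choice made after seeing the data, the shares were 21.8% and 25.9% of tyrosine cells against 26.1% and 29.2% of other-residue cells, a mean difference of -3.75. Their intervals overlap in both libraries. Among IGLV1 cells alone, with codon 8 counted, 43.3% (39.6 to 47.0) and 44.6% (40.5 to 48.7) of tyrosine cells were mutated. Of the other-residue IGLV1 cells, 53.9% (47.6 to 60.1) and 49.5% (42.7 to 56.4) were. The difference there was -10.6 percentage points in NP 1 and -4.98 in NP 2, where the intervals overlap. The 3 commonest IGLV1 forms, with codon 8 in capitals, are:
IGLV1, IGLJ1, 949 cells: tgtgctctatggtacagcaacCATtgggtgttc
IGLV1, IGLJ1, 281 cells: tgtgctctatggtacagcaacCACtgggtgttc
IGLV1, IGLJ1, 72 cells: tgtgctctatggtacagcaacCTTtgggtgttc
The first was carried by 53.3% and 46.9% of tyrosine cells in NP 1 and NP 2 and by 45.2% and 45.4% of other-residue cells. The CTT form reached 9.20% of NP 1 other-residue cells and lay between 1.67% and 3.55% in the other 3 sets. In the short receptors of 10 residues in NP 1 it was read in 23.7% (15.5 to 33.6). IGLV2 was paired with 6.42% and 14.3% of tyrosine cells against 1.92% and 9.17% of other-residue cells.

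Class switching was less frequent in the tyrosine arm in both libraries, by unequal amounts. Switched receptors, which replace IgM and IgD by an IgG constant region, were read, among cells with an isotype call, in 57.5% (53.9 to 61.0) and 55.8% (51.9 to 59.6) of tyrosine cells in NP 1 and NP 2, against 60.8% (54.5 to 66.7) and 70.0% (63.8 to 75.7) of other-residue cells. The difference was -3.31 percentage points in NP 1, where the intervals overlap, and -14.2 in NP 2 (exact permutation p = 0.333). Glycine cells alone were switched in 54.3% (45.3 to 63.1) and 62.6% (54.2 to 70.4), so against them NP 1 had the opposite order. The remaining other-residue cells reached 67.2% (58.4 to 75.1) and 81.7% (72.4 to 89.0).

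The IgG subclasses did not follow the arms in 1 direction. IgG1 had 15.9% (13.3 to 18.7) and 13.0% (10.6 to 15.8) of tyrosine cells in NP 1 and NP 2, against 24.6% (19.5 to 30.3) and 11.3% (7.55 to 15.9) of other-residue cells, lower in NP 1 and higher in NP 2. IgG3 had 14.5% (12.1 to 17.2) and 12.4% (10.0 to 15.2) of tyrosine cells against 10.8% (7.28 to 15.2) and 21.7% (16.6 to 27.4) of other-residue cells, again with the order turned between libraries. IgG2c had 15.2% and 17.2% of tyrosine cells against 15.8% and 18.8% of other-residue cells, with intervals that overlap in both libraries.

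Clone sizes gave no difference that holds in both libraries as counted. Cells of clones with at least 2 members made up 48.2% (44.6 to 51.8) and 46.6% (42.8 to 50.4) of tyrosine cells in NP 1 and NP 2, against 44.8% (38.7 to 51.1) and 54.6% (48.1 to 61.0) of other-residue cells (exact permutation p = 1.0). Clones of 8 or more cells held 17.4% and 12.3% of tyrosine cells against 6.13% and 29.6% of other-residue cells, with opposite order in the libraries. Finding a clone again depends on how many cells were read: with the tyrosine arm thinned to the size of the other-residue arm, clones of at least 2 held 35.5% and 32.9% of tyrosine cells against 44.8% and 54.6% of other-residue cells, lower in both libraries. The share of clones with at least 2 cells was 18.9% and 19.2% in the tyrosine arm and 20% and 19.9% in the other-residue arm.

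**Figure D3:**
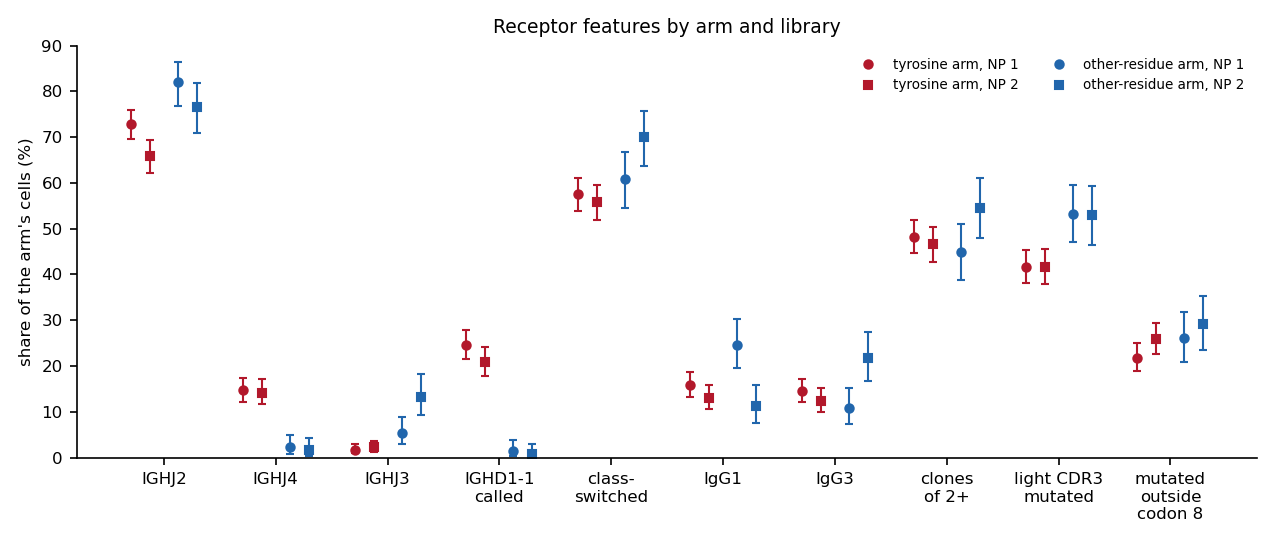
Share (%) of each arm's cells with the named receptor feature, tyrosine arm (red) left of other-residue arm (blue), circles NP 1, squares NP 2, with 95% Clopper-Pearson intervals. IGHJ4 and IGHD1-1 calls lie above 14% in the tyrosine arm and under 3% in the other-residue arm, while IgG1, IgG3 and clones of 2 or more change order between libraries.

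Gene expression was compared in those cells with at least 500 genes and at most 10% mitochondrial UMIs. The tyrosine arm kept 674 cells in NP 1 and 638 in NP 2, with 5571157 and 6396186 UMIs, against 231 and 229 cells in the other-residue arm, with 1715101 and 2211911 UMIs. The median cell had 7418.5 and 9146.5 UMIs in the tyrosine arm against 6358.0 and 8960.0 in the other-residue arm, and 5.15% and 4.03% mitochondrial UMIs against 5.19% and 4.09%. All 12 germinal center B cell markers were detected in both arms, with summed levels of 8307 and 8588 CPM (counts in 1e6 UMIs) in the tyrosine arm against 8761 and 8824 in the other-residue arm. The T cell markers Cd3e, Trbc2, Cd8a and Il7r and the myeloid markers S100a8, Ltf and Camp had no UMI in either arm, and the 6 NK markers had 3 UMIs in all. The T cell list, with 6 of 10 markers detected, summed to 121 and 84.6 CPM in the tyrosine arm against 103 and 112 CPM in the other-residue arm, of which the kinase gene Lck alone held 656 of 668 and 525 of 535 UMIs in the tyrosine arm and 170 of 175 and 236 of 245 in the other-residue arm. The myeloid list, with 8 of 11 detected, summed to 2.18 and 0.791 CPM against 2.36 and 0.916 CPM. The 5 red cell genes summed to 107 and 26.1 CPM in the tyrosine arm against 49.0 and 17.9 in the other-residue arm; the part of red cell RNA in the results was not tested.

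In tyrosine cells some light zone and antigen-response genes fell and some genes of mitosis and of the dark zone rose, by small amounts, while most members of these lists were not called. The test was edgeR's quasi-likelihood test on raw UMI sums of each arm in each library, with the library as a block, Benjamini-Hochberg adjustment over all genes and a threshold of 0.05, without immunoglobulin genes. In such sums, more cells in a state and more RNA per cell cannot be told apart. Of 9557 genes tested, 108 were called (1.13%): 44 were higher (0.46%) and 64 lower (0.67%) in the tyrosine arm. At an unadjusted p under 0.05 this edgeR fit had 859 genes. Of the 108, 105 had the same direction in both libraries, but they were called from these same libraries, so this is no separate support. For 81 of the 108 the log2 fold change was under 0.5 in size. The 4 sums leave 1 residual degree of freedom and the spread is borrowed across genes, so the calls rest on few values: DESeq2 with the same block called 4 genes, Malat1, H2-Aa, Cd52 and Hmgb2, and edgeR without the block called 0, with 74 and 82 genes at an unadjusted p under 0.05. "Rose" and "fell" below refer to the edgeR fit with the block. CPM values of single genes are scaled by TMM factors and given for NP 1 and then NP 2. The groups do not overlap for 73 of the 108 called genes. With 2 sums in each arm such separation can arise without a difference between the arms. Its share over all genes tested was not counted, so it is given as a description only, here and for single genes below.

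Of 22 light zone genes tested, 9 fell and 0 rose, with a median log2 fold change of -0.24 beside 0.003 over all genes tested. Il4i1, a secreted amino acid oxidase of activated B cells, had 136 and 105 CPM in tyrosine cells against 212 and 158 CPM in other-residue cells. Its groups do not overlap, and its log2 fold change was -0.62 ± 0.08 (SE, edgeR adjusted p = 1.67e-10). Cd83, a surface protein of light zone B cells, had 333 and 300 CPM in tyrosine cells against 450 and 378 CPM in other-residue cells, also without overlap (-0.38 ± 0.06, edgeR adjusted p = 2.29e-08). Fcer2a, which encodes the low-affinity IgE receptor, had 130 and 149 CPM against 189 and 174 CPM (-0.37 ± 0.08), and Cd86, a ligand for T cell costimulation, 103 and 104 CPM against 119 and 141 CPM (-0.33 ± 0.09), both again with all tyrosine values below all other-residue values. Cd52, a small surface glycoprotein, had 2201 and 2860 CPM in tyrosine cells against 2646 and 3299 CPM in other-residue cells and was lower within each library, with groups that overlap across libraries (-0.23 ± 0.03). The other members that fell were Lmo2, Ebi3, Bcl2a1b and Bcl2a1d; the last pair are near-identical copies of 1 survival gene, between which reads may be split.

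The antigen-response and NF-kB list, which shares Il4i1, Cd83, Cd86 and the Bcl2a1 copies with the light zone list, had 8 of 26 tested genes lower and 0 higher (median -0.25). Nfkbid, an inhibitor of the IkB family in the nucleus that NF-kB itself induces, had 42.0 and 27.8 CPM in tyrosine cells against 57.3 and 63.4 CPM in other-residue cells, without overlap (-0.81 ± 0.13, edgeR adjusted p = 1.03e-06). Among IgM and IgD cells its value was 0.13, above 0 and not called, and it was -0.44 in NP 1 and -1.19 in NP 2 alone. Irf4, a transcription factor raised by receptor and CD40 signals, had 15.9 and 9.27 CPM against 24.4 and 20.5 CPM (-0.85 ± 0.22). Ccnd2, a G1 cyclin, had 16.3 and 9.10 CPM against 18.7 and 24.8 CPM (-0.82 ± 0.22), a small gap in NP 1 and a large one in NP 2. Myc, a transcription factor of cell growth induced in selected cells, had 45.7 and 34.4 CPM in tyrosine cells against 33.4 and 41.5 CPM in other-residue cells, in opposite order in the libraries (0.07 ± 0.15, edgeR adjusted p = 0.936).

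**Figure D4:**
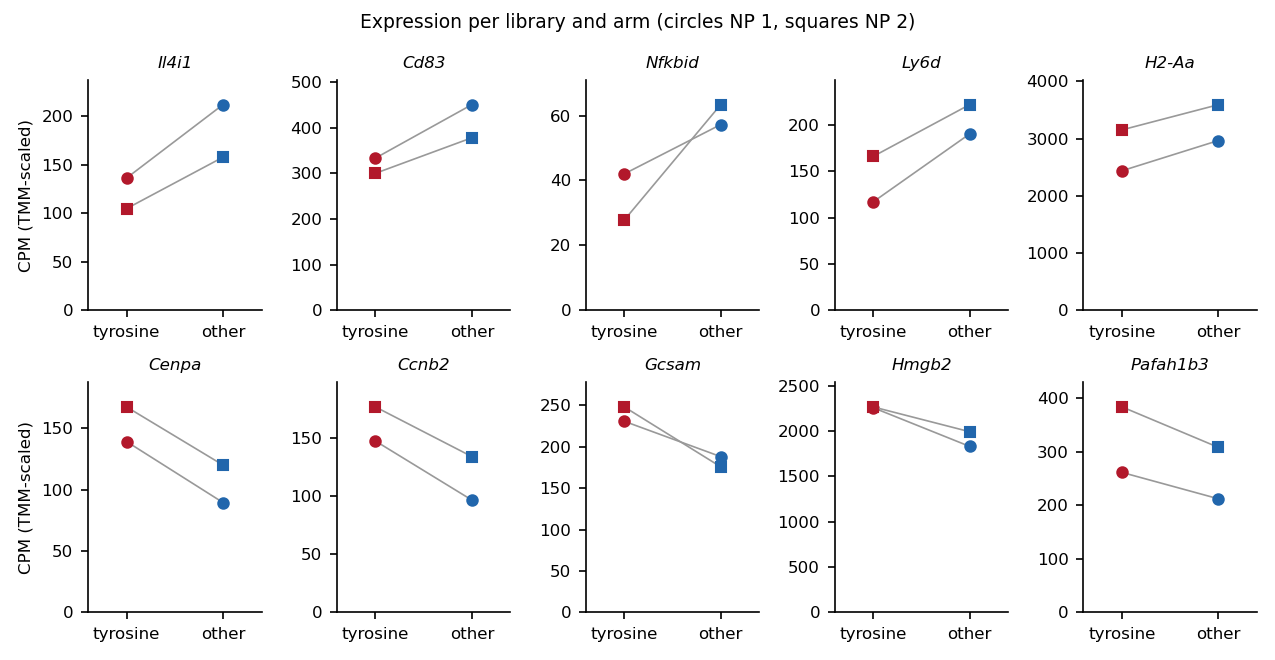
CPM of 10 genes in the sums of the tyrosine arm (red, left) and the other-residue arm (blue, right), with grey lines joining the arms of a library; circles are NP 1 and squares NP 2. The genes of the upper row are lower in the tyrosine arm in both libraries (Il4i1 136 and 105 against 212 and 158 CPM) and those of the lower row higher (Cenpa 139 and 168 against 89.6 and 120 CPM).

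Several genes of antigen presentation and a few of B cell receptor signaling fell. Of 13 MHC class II presentation genes, 6 fell and 0 rose (median -0.14). H2-Aa, the alpha chain of the I-A molecule, had 2438 and 3153 CPM in tyrosine cells against 2967 and 3593 CPM in other-residue cells, lower within each library (-0.23 ± 0.03, edgeR adjusted p = 4.68e-13), and Cd74, the invariant chain, changed by -0.14 ± 0.02. H2-Ab1, H2-Eb1, H2-DMb2 and H2-Oa fell by 0.13 to 0.27 on the log2 scale. Of 29 B cell receptor signaling genes, 3 fell: Cd79a, the receptor's signaling chain (-0.12 ± 0.03), Nfatc1 (-0.35 ± 0.09) and Cr2, the complement receptor (-0.41 ± 0.09). Cr2 had 123 and 104 CPM in tyrosine cells against 204 and 106 CPM in other-residue cells, so its fall rests on NP 1, and among IgM and IgD cells its value was 0.08. Of 17 inhibitors of the receptor 2 fell, Cd72 (-0.35 ± 0.08) and Cd22 (-0.26 ± 0.07), and all 17 fitted values were below 0. Cd72 had 141 and 131 CPM in tyrosine cells against 212 and 141 CPM in other-residue cells, again mostly in NP 1. Among 16 receptors for T cell help Cd86 and Tnfrsf13c, the BAFF receptor (-0.17 ± 0.05), fell.

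Of 15 genes of memory and naive B cells tested, 4 fell, Ly6d, Ccr6, Fcer2a and Cd22, and 0 rose. The list's median was -0.37, with -0.40 in NP 1 alone and -0.18 in NP 2 alone, and Gpr183 (0.11) and Cd55 (0.21) had fitted values above 0. At no more than 5% mitochondrial UMIs the median was -0.19 with 0 genes called, and against glycine cells alone it was -0.22 with 0 called. Ly6d, a lymphocyte surface antigen, had 117 and 166 CPM in tyrosine cells against 190 and 222 CPM in other-residue cells, without overlap (-0.54 ± 0.08, edgeR adjusted p = 3.84e-09). Ccr6, a chemokine receptor of memory precursors, was read as 2 and 5 UMIs in tyrosine cells against 19 and 6 UMIs in other-residue cells. The ratio of its levels was 0.0325 in NP 1, with an exact counting interval of 0.00367 to 0.135, and 0.289 in NP 2, with an interval of 0.0698 to 1.14.

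Several mitotic genes rose. Of 50 genes of G2 and M phase, 6 rose and 0 fell (median 0.18), and of 20 dark zone genes 5 rose and 0 fell (median 0.21); Cenpa, Ccnb1 and Ccnb2 are in both lists. Cenpa, the histone variant that marks centromeres, had 139 and 168 CPM in tyrosine cells against 89.6 and 120 CPM in other-residue cells, without overlap (0.55 ± 0.09, edgeR adjusted p = 1.11e-06). Ccnb2, a mitotic cyclin, had 148 and 177 CPM against 96.9 and 134 CPM (0.49 ± 0.09), and Hmgb2, a chromatin protein of dividing cells, 2257 and 2265 CPM against 1830 and 1992 CPM (0.24 ± 0.03). The groups do not overlap for either. Ccnb1 (0.48 ± 0.13), Tubb4b (0.27 ± 0.06) and Cdca3 (0.34 ± 0.09) rose as well. In the S phase list 1 of 44 genes rose, Rpa2, a subunit of the single-strand DNA binding complex (0.38 ± 0.10), and Mki67, a general marker of cycling, had 391 and 358 CPM in tyrosine cells against 365 and 341 CPM in other-residue cells (0.09 ± 0.06, edgeR adjusted p = 0.724).

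Of the dark zone genes outside the cell cycle, Gcsam and Pafah1b3 rose. Foxo1 (0.06), Polh (0.19), Gadd45b (0.11) and Tcf3 (0.09) were not called, and neither were Foxp1 (-0.18) and Rgs13 (-0.06). With DESeq2, against glycine cells alone, among switched cells and among IgM and IgD cells, 0 dark zone genes were called. Without clones of 8 or more cells 7 were called higher. Gcsam, a regulator of germinal center B cell motility, had 231 and 248 CPM in tyrosine cells against 188 and 176 CPM in other-residue cells, without overlap (0.40 ± 0.07). Pafah1b3, a subunit of an acetylhydrolase, had 261 and 383 CPM against 212 and 308 CPM, higher within each library (0.31 ± 0.06). Cxcr4, the chemokine receptor that retains cells in the dark zone, had 109 and 51.8 CPM in tyrosine cells against 97.5 and 45.3 CPM in other-residue cells and was not called (0.18 ± 0.11, edgeR adjusted p = 0.701). Among 20 germinal center factors, 4 rose and 1 fell. Rgs1, a regulator of chemokine receptor signaling, had 12.8 and 96.5 CPM in tyrosine cells against 6.23 and 53.4 CPM in other-residue cells, a difference within each library beside a far larger one between libraries (0.87 ± 0.15). Pou2af1, a coactivator that germinal centers require, and Neil1, a DNA glycosylase, rose by 0.22 and 0.23 on the log2 scale, and Ebf1, a B lineage factor, changed by -0.21 ± 0.04. Bcl6, the master factor of germinal centers, was not called (-0.12 ± 0.11, edgeR adjusted p = 0.80).

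In other programs few genes were called. Of 24 hypermutation and switching genes 1 rose, Hmces, which shields abasic DNA sites (0.25 ± 0.05). Of 77 nuclear-encoded genes of oxidative phosphorylation 4 rose (Cox5b, Sdhb, Cox6b1 and Atp5g3, by 0.14 to 0.23), and 74 of the 77 fitted values were above 0, with a median of 0.09. An unadjusted edgeR p under 0.05 was found for 21 of the 77, beside 859 of all 9557 genes tested. The median of these 77 genes was 0.12 in NP 1 alone and 0.08 in NP 2 alone, and DESeq2 called 0 of them. Of the 13 mitochondrially encoded genes edgeR and DESeq2 called 0, 1 had an unadjusted p under 0.05 and 12 fitted values were below 0. Of 34 MYC targets 2 rose, Ran and Ptma, by 0.18 and 0.09. In glycolysis (16 genes, median 0.07) and apoptosis (17 genes, median -0.05) edgeR and DESeq2 called 0 genes. In each of these lists 2 genes had an unadjusted edgeR p under 0.05, beside 859 of all 9557 genes tested. In the plasma cell list Jchain, which joins IgM pentamers, rose by 0.21 on the log2 scale and Irf4 fell. Of 9 interferon genes 1 was called higher, Ifi27l2a, which had 125 and 251 CPM in tyrosine cells against 127 and 172 CPM in other-residue cells, a difference in NP 2 alone.

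The genes with the largest fitted changes were mostly low in level. Among those that rose, 2200002D01Rik had 23 and 41 UMIs in tyrosine cells against 1 and 4 UMIs in other-residue cells, with level ratios of 7.11 (exact counting interval 1.15 to 293) in NP 1 and 3.56 (1.29 to 13.7) in NP 2. Hbb-bs, a beta globin that B cells do not make, had 25.05 and 8.44 CPM against 9.64 and 5.72 CPM (1.08 ± 0.28), beside the red cell sums given above. Gm42047, Csnk1e, Cdkn3 and Ddx19a rose by 0.37 to 0.96. Among those that fell, Zeb2, a repressor of the E-box type, had 7.01 and 11.4 CPM in tyrosine cells against 18.7 and 20.97 CPM in other-residue cells (-1.10 ± 0.24), and Capg, an actin-capping protein, 13.1 and 12.6 CPM against 28.3 and 21.9 CPM (-0.96 ± 0.21). Hes5, a target of Notch signaling, had 16.3 and 11.6 CPM against 27.8 and 22.9 CPM (-0.87 ± 0.20). Sapcd1, Gstt1, Abca1, Aldh7a1 and Arhgap24 fell by 0.83 to 1.04 on the log2 scale. The groups do not overlap for any of these 8 genes that fell, which is a description only, since they were picked from these same sums. Malat1, a nuclear long RNA, had the lowest p of all genes, with 1765 and 1647 CPM in tyrosine cells against 2037 and 2083 CPM in other-residue cells (-0.27 ± 0.03); it was named after its values were seen.

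**Figure D5:**
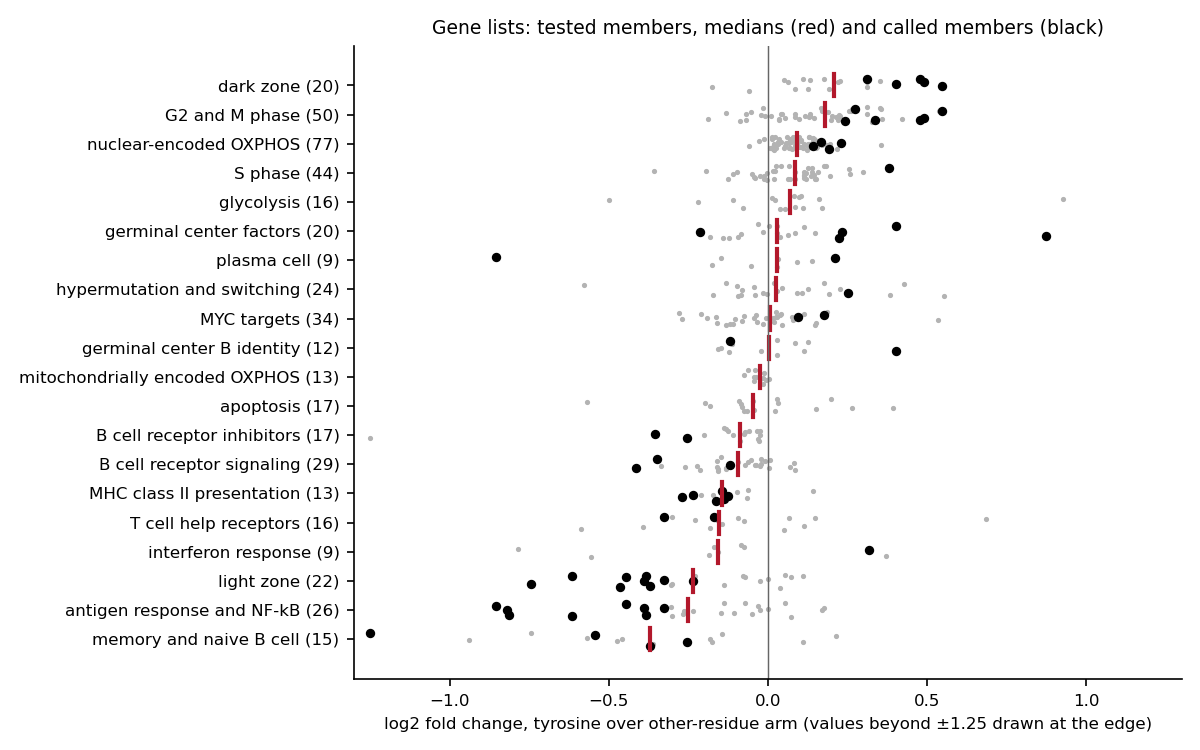
Log2 fold change, tyrosine over other-residue arm, of the tested members of each gene list (number in parentheses); black points are called members, grey points are not called and red bars are medians. The memory, antigen-response, light zone and MHC class II lists have medians to the left of 0 and the dark zone and G2 and M phase lists to the right, with members on both sides in each.

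The number of called list members moved in both directions between selections of cells, and the medians kept their sign in each selection given here. Of the light zone genes, 3 were called lower with glycine cells alone as the other-residue arm, 2 among switched cells and 0 among IgM and IgD cells, with medians of -0.15, -0.27 and -0.20. Of the G2 and M phase genes, 0, 1 and 0 were called higher, with medians of 0.13, 0.23 and 0.06, and 14 were called higher without clones of 8 or more cells. With glycine cells left out, an alternative chosen after seeing the data, 7 light zone genes were called lower and 9 genes of G2 and M phase higher, with medians of -0.36 and 0.25. In each library alone the light zone median was -0.21 in NP 1 and -0.25 in NP 2, and that of G2 and M phase was 0.22 in NP 1 and 0.14 in NP 2. The antigen-response median was -0.19 in NP 1 and -0.34 in NP 2.

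Within the other-residue arm, edgeR called some genes between cells with glycine at position 4 and those with any other residue, a comparison added after seeing the data. Of 7260 genes tested with edgeR in the same way, 31 were called (0.427%), 12 higher (0.165%) and 19 lower (0.262%) in glycine cells. This fit has 4 sums of 93 to 136 cells and 1 residual degree of freedom. It was not repeated with DESeq2 or without the block, and no values per library were taken. Cd72, an inhibitory receptor of B cells, differed by -0.66 ± 0.13 on the log2 scale (edgeR adjusted p = 0.00205), Ly6d by -0.56 ± 0.12 and Fcer2a by -0.55 ± 0.13. Hmgb2 was higher by 0.25 ± 0.05 and Cdca3, a trigger of mitotic entry, by 0.68 ± 0.17. Nt5e, which encodes CD73, was higher by 1.61 ± 0.34 (edgeR adjusted p = 0.00302). Genes called lower in glycine cells include those of ribosomal proteins: Rps4x (-0.20 ± 0.04), Rpl36 (-0.23 ± 0.05), Rps12, Rpl41, Rplp1, Rpl38, Rpl9 and Rps27. The share of ribosomal protein genes over all genes tested was not counted. The histone genes Hist1h3e (-0.89 ± 0.22), Hist1h1b (-0.55 ± 0.15) and Hist1h1e (-0.62 ± 0.17) were lower as well, opposite in direction to Hmgb2 and Cdca3.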

How the data were processed

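The deposited gene table holds raw UMI counts per gene and cell, and the deposited contig tables hold read and UMI counts per contig with V, D, J and constant gene calls and CDR3s; the authors did not normalize either. Cell Ranger and mm10 are named in the submitters' processing notes; versions are not given in the sources used here, and mm10 was assumed for gene positions, which come from RefSeq's GRCm38.p6 table. The members, gene lists and tests were chosen with earlier results of these data known. Ties in UMIs (6 heavy and 2 light chains) were settled by reads. No doublet caller was run on these cells; cells with more than 1 productive heavy or light chain, 7.73% to 11.3% per arm, were left out as an alternative.

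Sums per library and arm, without 225 immunoglobulin genes, were fitted with edgeR 4.0.16 (R 4.3.3; filterByExpr, TMM, library block, since both arms of a library are the same sample) and checked on simulated counts; the SE of a fold change was taken as its size over the root of its F statistic. An alternative was DESeq2 1.42.0. Shares were compared by exact two-sided permutation over the 4 library-by-arm values (scipy 1.17.1), since cells are not replicates, with Clopper-Pearson intervals at 95% and a limit of 3 counts where none was read. Named genes are up to 12 called per direction with the largest changes, up to 4 per list with the lowest p, and Myc, Cxcr4, Cd83, Bcl6 and Mki67, with 1 more gene of the rule not reported here; other list members called by the test are named with them. The OVA library serves only as a background for receptor features, and the bulk heavy chains are not used here.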

Additional observations from a re-analysis of the deposited data

How the results depend on the processing

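Calls between the arms rest on 4 sums. Beside 108 genes called between arms, RLE size factors, no low-count filter, single chains, removal of clones of 8 or more cells, and removal of glycine cells (chosen after seeing the data) gave 89 to 128. Without the replicate block 0 genes were called, with DESeq2 4, with at most 5% mitochondrial UMIs 20, against glycine cells only 11, in switched cells only 10 and in IgM and IgD cells only 1; the cause was not tested. Leaving out a library leaves no residual degree of freedom, so no count was made. Among IgM and IgD cells 4 named genes that were called between the arms turned: Nfkbid 0.127, Cr2 0.0755, Arhgap24 0.0379 and Ifi27l2a -0.0297. Another 3 named genes, called in neither fit, changed sign there too. With 1 library left out Ifi27l2a ran between -0.0281 and 0.54.

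The tyrosine minus other-residue difference in the share of cells in clones of 2 or more was -2.29 percentage points, between -7.99 and 3.403 with 1 library left out and -15.5 with the arms thinned to the same number of cells. The difference in the IGHJ2 share was -19.5 against glycine cells only. For the share with a mutated light CDR3 it was -8.26 by clone, -13.8 with single chains, -11.1 with at least 5 UMIs and -8.96 against glycine cells. It was -7.81 in IGLV1 cells alone and -3.75 without codon 8. Heavy CDR3 length and the switched share moved by less than the spread between libraries. For the switched share that spread is wide, with differences of -3.31 percentage points in NP 1 and -14.2 in NP 2. Against glycine cells alone, tyrosine cells were switched in 57.5% against 54.3% in NP 1 and 55.8% against 62.6% in NP 2, so NP 1 had the opposite order. With 2 libraries the exact permutation test of a share cannot pass the threshold, and low genes are limited by the depth of the other-residue arm.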

Other observations

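The first 3 codons of the heavy CDR3, which the V gene encodes, differed from their commonest form in 24.6% (21.6 to 27.9) and 25.6% (22.3 to 29.1) of tyrosine cells in NP 1 and NP 2, against 32.6% (26.9 to 38.6) and 17.9% (13.3 to 23.4) of other-residue cells, with opposite order in the libraries.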
